A study of Rattus norvegicus with 24 samples.

Results

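Neurons owe their shape to neurofilaments and microtubules, and 7 genes of this skeleton and of axon growth were followed in the rat hippocampus after an ischemia operation: Nefl, Nefm, Nefh, Gap43, Map2, Mapt and Map1b. Every probe set that the array annotation pairs with exactly 1 of these genes was taken, which gave 17 of the 8799 probe sets on the array for 7 of the 4737 genes that have a probe set of their own. The 7 genes had between 1 and 5 probe sets each. Of the 17, 15 could be tested and 12, from 6 genes, lay above the noise level on both arrays of at least 1 group. The remaining 5 probe sets, 2 for Map2 and all 3 for Map1b, did so in no group.

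The arm called TOL was labelled as hypoxia tolerant and the arm called SHAM as hypoxia sensitive. Each arm was sampled at 0, 1, 3, 12, 24 and 48 h after the operation, with 2 arrays at each time, from a first and a second experiment, so that 24 Affymetrix arrays of the type RG_U34A form 12 groups. The labels give neither strain, age, sex, the kind of ischemia nor the treatment that made the TOL arm tolerant, and the 0 h groups are placed after the operation too, so no group without it was analysed here. Nor do they say whether 2 animals stand behind the 2 arrays of a group. The p-values therefore measure no more than the spread between these samples, part or all of which may be technical. Values are normalised intensities in arbitrary units of the deposited scale, a probe set's level is compared only with itself, and log2 differences carry their SE. A difference is called where its limma p-value, adjusted after Benjamini and Hochberg over all 7092 probe sets tested, lies under 0.05.

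Neurofilaments are the intermediate filaments of axons. Nefl, the light subunit, forms the core of the filament, and the medium and heavy subunits, Nefm and Nefh, add long phosphorylated side arms that space the filaments and help to set the width of the axon. Microtubules are bound by Map2 mainly in dendrites, by tau, the product of Mapt, mainly in axons, and by Map1b, which is most abundant while axons grow. Gap43 is a membrane protein of growth cones and presynaptic endings and a substrate of protein kinase C, and in the adult hippocampus it stays high in neurons that keep remodelling their endings. Map2 and neurofilament proteins are cut by calpains when calcium rises, and loss of Map2 staining is a common marker of ischemic injury to dendrites. All of this concerns proteins as much as transcripts, while the arrays measured RNA only.

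The arrays were hybridised on 2 days, and the days nearly divide the arms: 11 of 12 TOL arrays were run on day 2, and 11 of 12 SHAM arrays on day 1. The exceptions were replicate 1 of TOL at 0 h, run on day 1, and replicate 2 of SHAM at 48 h, run on day 2. Within each arm the times followed each other through the fluidics runs inferred from the recorded times, and the 4 TOL arrays of 24 and 48 h, which made up a run of their own, each carry a fluidics record that ends in an abort. Replicate arrays had an r of 0.921 to 0.954 over the tested probe sets. Each of the 10 measured markers of neurons was above the noise level in at least 1 group, and Camk2a was below it on both SHAM arrays of 24 h.

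In TOL, 2 of the 15 tested probe sets changed over the 5 later times by limma's F test, Nefl AF031880_at and Gap43. Their share of 13.3% is close to the 11.7% of all tested probe sets that changed. Without the 4 arrays of an aborted fluidics record, an alternative chosen after seeing the data that leaves 1, 3 and 12 h, 0 of the 15 changed in TOL, against 3.31% of all tested. In SHAM, 4 of the 15 changed, both Nefl probe sets, Nefm and Map2 U30938_at, against 15.7% of all tested. With both arms averaged, limma called 0 of 15 lower at 1 h (0.536% of all tested) and at 3 h (1.59%), with 0 at an unadjusted p under 0.05 (12.5% and 16.4% of all tested in either direction). It called 2 lower at 12 h (5.57%), 4 at 24 h (8.23%) and 5 at 48 h (10.2%). None was called higher at these times, among 1.47%, 2.35%, 5.77%, 8.93% and 10.7% of all tested probe sets from 1 to 48 h. In TOL alone the counts were 0 at 1 h (1.24% of all tested in either direction), 0 at 3 h (1.2%), 0 at 12 h (4.47%), 2 at 24 h (7.37%) and 0 at 48 h (7.5%). At an unadjusted p under 0.05 they were 0, 0, 3, 2 and 4, where 11.9%, 11.5%, 18.5%, 22.5% and 22.1% of all tested probe sets were. In SHAM alone they were 0 at 1 h (0.818%), 0 at 3 h (2.03%), 0 at 12 h (5.81%), 2 at 24 h (9.11%) and 2 at 48 h (12.4%). At an unadjusted p under 0.05 they were 0, 0, 3, 4 and 3, where 8.46%, 13.7%, 19.1%, 23.5% and 28.8% of all tested probe sets were. All the calls after adjustment were lower.

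As a plain count of the arrays, all 4 later arrays lay below all 4 arrays of 0 h for 0 of the 12 probe sets above noise at 1 h (2.64% of all tested) and 3 h (3.88%), and for 4 of 12 at 12 h (7.33%), 24 h (9.98%) and 48 h (11%). All 4 lay above for 1 of 12 at 1 h (3.33%) and 3 h (4.31%) and for 0 of 12 at 12 h (7.12%), 24 h (10.4%) and 48 h (10.4%). The median log2 difference of the 12 probe sets above noise was -0.16 at 12 h, -0.12 at 24 h and -0.31 at 48 h, beside -0.02, -0.04 and -0.04 over all tested probe sets. The shares and medians over all tested probe sets include many that were never above noise, unlike the 12. Fitted on the probe sets above the noise level only, limma called 7.44%, 10.7% and 13.2% lower over both arms at 12, 24 and 48 h. The genes called lower were Nefl, Nefm, Gap43 and Map2, while Nefh and Mapt had no call in any test against 0 h.

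Nefl was the member with the smallest p-values. Its probe set AF031880_at read 1280.1 and 1456 units (0 h), 1335 and 1606.5 (1 h), 1474 and 1354 (3 h), 1076 and 1160.1 (12 h), 976 and 992 (24 h) and 1119.9 and 1132 (48 h) in TOL. SHAM arrays read 1276 and 1290.1 units (0 h), 1299 and 1446.5 (1 h), 1499 and 1364 (3 h), 981 and 993 (12 h), 849.7 and 923 (24 h) and 1101 and 1117 (48 h). In both arms the 1 and 3 h arrays spread around or above the 0 h arrays, every array of 12 h and later lay below all 4 arrays of 0 h, and the lowest readings were those of 24 h. With the 12 groups ordered by their mean, the 6 groups of 12 h and later were the lowest, and SHAM at 24 h and TOL at 24 h came last. In 8 of the 11 neighbouring pairs of this order the arrays overlapped.

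With both arms averaged, Nefl AF031880_at was 1.26-fold lower at 12 h (1053 against 1325 units at 0 h, log2 difference -0.33 ± 0.08, adjusted p = 0.0163) and 1.42-fold lower at 24 h (935 units, -0.50 ± 0.08, adjusted p = 0.000768). At 48 h the deficit was smaller, 1.18-fold (1118 units, -0.24 ± 0.08, adjusted p = 0.0464). The 24 h difference was called in each arm on its own: it was -0.47 ± 0.11 in TOL (adjusted p = 0.0249) and -0.53 ± 0.11 in SHAM (adjusted p = 0.0096). Over the whole time course the adjusted p of the F test was 0.0154 in TOL and 0.00407 in SHAM. The 24 h difference over both arms passed in all 24 fits that left out 1 array (adjusted p at most 0.00456). That of 12 h passed in 20 of the 24 fits that left out 1 array. The call failed in the fits without TOL 0 h replicate 2, TOL 12 h replicate 1, SHAM 0 h replicate 2 or else SHAM 12 h replicate 1 alone (adjusted p 0.0506 to 0.0569, log2 differences -0.33 to -0.29). The call at 48 h held least often of the 3 times: it passed in 7 of the 24 fits that left out 1 array. The threshold was missed without either TOL array of 3, 24 or 48 h, TOL 0 h replicate 2 or else either SHAM array of 0, 1, 3, 12 or 48 h alone (adjusted p 0.0508 to 0.133, log2 differences -0.25 to -0.20). In single arms, the TOL difference at 24 h passed in 21 of the 24 fits that left out 1 array. Leaving out either TOL array of 24 h or else TOL 0 h replicate 2 alone ended the call (adjusted p 0.108 to 0.132, log2 differences -0.48 to -0.38). On day 2 alone, which holds 1 TOL array of 0 h, it was -0.57 with an adjusted p of 0.146. The SHAM difference passed in 21 of the 24 fits that left out 1 array. Fits without either SHAM array of 0 h or else SHAM 24 h replicate 1 alone missed the threshold (adjusted p 0.0505 to 0.0625, log2 differences -0.54 to -0.48). The TOL F test passed in 22 of the 24 fits that left out 1 array. It was lost without either TOL array of 24 h alone (adjusted p 0.054 to 0.0623).

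A second Nefl probe set, M25638_s_at, moved the same way with a wider swing. It read 216 and 225 units (0 h), 369 and 443.5 (1 h), 373 and 368 (3 h), 135 and 124 (12 h), 80.2 and 58.2 (24 h) and 37 and 194 (48 h) in TOL. The SHAM arrays gave 161 and 230.1 units (0 h), 289 and 304 (1 h), 379 and 239 (3 h), 88.5 and 92.8 (12 h), -4.2 and 61 (24 h) and 234 and 124 (48 h). Here all 4 arrays of 1 h and all 4 of 3 h lay above all 4 arrays of 0 h and all 4 arrays of 12 h and of 24 h lay below. At 48 h the arrays scattered on both sides of the 0 h level, between 37 units in TOL and 234 units in SHAM. Only the fall at 24 h was called, at a fitted log2 difference of -2.71 ± 0.68 over both arms (adjusted p = 0.0143) and of -3.72 ± 0.96 in SHAM (adjusted p = 0.0259). Since 1 SHAM array of 24 h read below 0, these fitted sizes are not measured folds; with readings under the noise level of 41.6 units set to that level, the differences were -1.81 and -1.93, or 3.51-fold and 3.82-fold. The difference over both arms passed in all 24 fits that left out 1 array (adjusted p at most 0.0496). Its size moved most without the SHAM arrays of 24 h, to -1.67 without replicate 1 and -3.74 without replicate 2. The SHAM difference passed in 21 of the 24 fits that left out 1 array. The call failed in the fits without either SHAM array of 0 h or else SHAM 24 h replicate 1 alone (adjusted p 0.0819 to 0.175, log2 differences -3.98 to -1.66). On day 1 alone it was -3.72 with an adjusted p of 0.133. The SHAM F test (adjusted p = 0.0338) passed in 14 of the 24 fits that left out 1 array. The threshold was missed without either SHAM array of 0, 1, 3 or 12 h, SHAM 24 h replicate 1 or else SHAM 48 h replicate 1 alone (adjusted p 0.0501 to 0.0832). Over the 12 group means, which share arrays and normalisation, both Nefl probe sets correlated at r = 0.92.

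**Figure D1:**
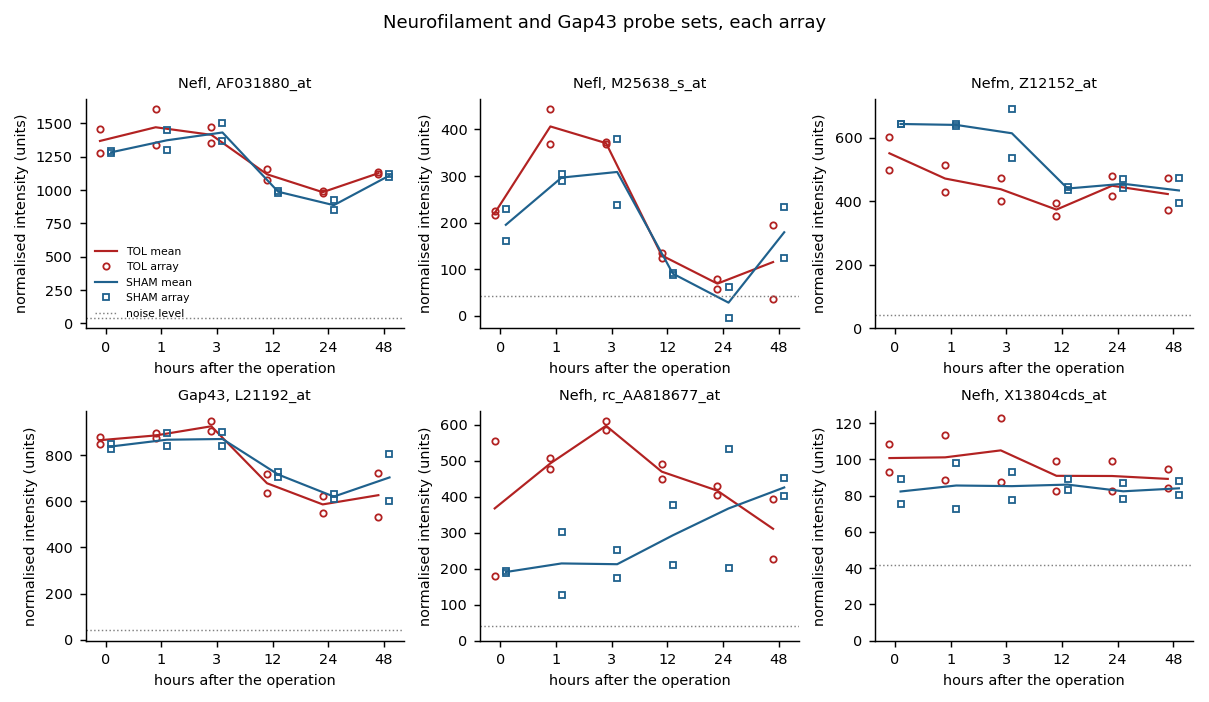
Normalised intensity (units, vertical axes from 0 or the lowest value) of the neurofilament and Gap43 probe sets at each sampled time (hours after the operation, evenly spaced); circles are TOL arrays, squares SHAM arrays, lines the mean of 2 arrays, and the dotted line the noise level of 41.6 units. Nefl, Nefm and Gap43 lay lower at 12 and 24 h than at 0 h in both arms, while the 2 Nefh probe sets showed no common fall.

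Nefm, the medium subunit, fell by 12 h and was still low at 48 h. Its only probe set, Z12152_at, read 603 and 499 units (0 h), 430.2 and 512 (1 h), 474 and 401.5 (3 h), 395 and 352 (12 h), 417 and 480.5 (24 h) and 373 and 472 (48 h) in TOL. SHAM readings were 642 and 644 units (0 h), 642 and 638 (1 h), 690.1 and 537 (3 h), 444 and 435 (12 h), 469 and 441 (24 h) and 474 and 393 (48 h). SHAM arrays stayed between 537 and 690 units up to 3 h and between 393 and 474 units from 12 h on, with no overlap. In TOL the readings of 1 and 3 h, 401.5 to 512 units, already lay at or below the lower of the 0 h arrays except for 1 array. Averaged over both arms, the level was 407 units at 12 h, against 597 units at 0 h, or 1.47-fold lower (log2 difference -0.55 ± 0.12, adjusted p = 0.00811). It was 1.32-fold lower at 24 h (-0.40 ± 0.12, adjusted p = 0.0333) and 1.39-fold lower at 48 h (-0.48 ± 0.12, adjusted p = 0.0117). At all 3 times every array lay below every 0 h array. In single arms only SHAM at 48 h was called (434 against 643 units, -0.57 ± 0.17, adjusted p = 0.0377).

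The fall of Nefm at 12 h passed in all 24 fits that left out 1 array (adjusted p at most 0.039). That of 24 h passed in 18 of the 24 fits that left out 1 array. Leaving out TOL 0 h replicate 1, TOL 24 h replicate 1 or else either SHAM array of 0 or 24 h alone ended the call (adjusted p 0.0548 to 0.127, log2 differences -0.42 to -0.33). That of 48 h passed in 23 of the 24 fits that left out 1 array. Fits without TOL 0 h replicate 1 alone missed the threshold (adjusted p = 0.054, log2 difference -0.41). In SHAM alone, the difference at 48 h passed in 18 of the 24 fits that left out 1 array. It was lost without either SHAM array of 0, 12 or 48 h alone (adjusted p 0.0506 to 0.206, log2 differences -0.71 to -0.44). The SHAM F test (adjusted p = 0.0356) passed in 15 of the 24 fits that left out 1 array. The call failed in the fits without either SHAM array of 0, 1, 12 or 24 h or else SHAM 48 h replicate 2 alone (adjusted p 0.0509 to 0.076). On day 1 alone, which holds 1 SHAM array of 48 h, the SHAM difference was -0.44 with an adjusted p of 0.175. Nefm and Nefl lie next to each other on rat chromosome 15, with 0 annotated protein-coding genes between them in the GRCr8 assembly. Their group means correlated at r = 0.53 for Nefl AF031880_at and at r = 0.38 for Nefl M25638_s_at.

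Nefh, the heavy subunit, had no call against 0 h at any time. The probe set X13804cds_at read 82.6 to 123 units over the 12 TOL arrays and 72.9 to 98.3 units over the 12 SHAM arrays. With both arms averaged it differed from 0 h by -0.07 ± 0.14 at 24 h (95% interval -0.38 to 0.24) and -0.07 ± 0.14 at 48 h (-0.38 to 0.24). The EST probe set rc_AA818677_at read 180.3 and 554 units (0 h), 507 and 478 (1 h), 609.8 and 584 (3 h), 449 and 490.3 (12 h), 429 and 404 (24 h) and 393 and 228 (48 h) in TOL. It read 188 and 193 units (0 h), 128 and 301 (1 h), 252 and 173 (3 h), 209 and 376 (12 h), 202.5 and 532 (24 h) and 450.5 and 401 (48 h) in SHAM. Replicates were far apart in several groups, the widest being TOL at 0 h and SHAM at 24 h, and no difference from 0 h was called. The mean difference at 24 h, 0.59 ± 0.38, had an interval of -0.24 to 1.42 and an adjusted p of 0.332. Whether Nefh and Nefl differed was not tested.

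Gap43 was low at 12, 24 and 48 h, as Nefl was. Its probe set L21192_at read 879.6 and 849 units (0 h), 874 and 895 (1 h), 903.5 and 946 (3 h), 719 and 636 (12 h), 622 and 550.5 (24 h) and 532 and 720 (48 h) in TOL. The readings in SHAM were 826 and 848 units (0 h), 839 and 894 (1 h), 841 and 898 (3 h), 705 and 726 (12 h), 611 and 629 (24 h) and 805 and 601 (48 h). Up to 3 h all 12 arrays lay between 826 and 946 units, and from 12 h on all 12 lay between 532 and 805 units. The replicates lay farthest apart at 48 h, in both arms. With both arms averaged, Gap43 read 603 units at 24 h, against 851 units at 0 h, 1.41-fold lower (-0.50 ± 0.11, adjusted p = 0.00584), and 664.5 units at 48 h, 1.3-fold lower (-0.37 ± 0.11, adjusted p = 0.0249). At 12 h the difference of -0.29 ± 0.11 was not called (adjusted p = 0.107), although the arrays did not overlap.

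In TOL alone the 24 h difference of Gap43 was called (586 against 864 units, -0.56 ± 0.15, adjusted p = 0.0395), and in SHAM it was -0.43 ± 0.15 (adjusted p = 0.0957). The arms were not shown to differ: the F test of TOL against SHAM over the time course had an adjusted p of 0.938 for Gap43. The fall at 24 h over both arms passed in all 24 fits that left out 1 array (adjusted p at most 0.0287). That of 48 h passed in 19 of the 24 fits that left out 1 array. The threshold was missed without TOL 0 h replicate 1, TOL 48 h replicate 1, either SHAM array of 0 h or else SHAM 48 h replicate 2 alone (adjusted p 0.0539 to 0.0991, log2 differences -0.38 to -0.27). The TOL difference at 24 h rested on a narrow margin: it passed in 10 of the 24 fits that left out 1 array. Leaving out either TOL array of 0, 1, 3 or 24 h or else either SHAM array of 0, 1 or 12 h alone ended the call (adjusted p 0.0504 to 0.226, log2 differences -0.65 to -0.48). The TOL F test (adjusted p = 0.0219) passed in 22 of the 24 fits that left out 1 array. Fits without TOL 3 h replicate 2 or else TOL 24 h replicate 2 alone missed the threshold (adjusted p 0.0521 to 0.0698). On day 2 alone, which holds 1 TOL array of 0 h, the TOL difference was -0.54 with an adjusted p of 0.263. Over the 12 group means Gap43 correlated with Nefl AF031880_at at r = 0.90 and with Nefl M25638_s_at at r = 0.83.

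Map2, the dendritic microtubule protein, was called lower only at 48 h. Its probe set U30938_at read 1849 and 1502 units (0 h), 1422 and 1731 (1 h), 1534 and 1533 (3 h), 1608 and 1671 (12 h), 1423.5 and 1422 (24 h) and 1197 and 1290.1 (48 h) in TOL. SHAM readings were 1705 and 1396 units (0 h), 1786 and 1751 (1 h), 1917 and 1849 (3 h), 1549.5 and 1954 (12 h), 1419 and 1433 (24 h) and 1186 and 1141 (48 h). The 4 arrays of 48 h, from 1141 to 1290.1 units, lay below every other array of both arms, and before 48 h none of the time groups stood apart from 0 h in both arms. With both arms averaged, the level at 48 h was 1203 units, against 1613 units at 0 h, 1.33-fold lower (-0.42 ± 0.10, adjusted p = 0.0109). This difference was -0.42 ± 0.14 in TOL and -0.41 ± 0.14 in SHAM, called in neither alone (adjusted p = 0.0916 and 0.0759). The fall over both arms passed in 23 of the 24 fits that left out 1 array. It was lost without TOL 0 h replicate 1 alone (adjusted p = 0.0525, log2 difference -0.34). The SHAM F test (adjusted p = 0.0263) passed in 21 of the 24 fits that left out 1 array. The call failed in the fits without either SHAM array of 48 h or else SHAM 3 h replicate 1 alone (adjusted p 0.0527 to 0.114).

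A further pair of Map2 probe sets, X17682_s_at and X53455cds_s_at, varied together (r = 0.84 over the 12 group means) and less like U30938_at (r = 0.69 and 0.43). X17682_s_at read 199.5 and 97.4 units (0 h), 223 and 263.5 (1 h), 108 and 113 (3 h), 118 and 139 (12 h), 101 and 192 (24 h) and 159.7 and 58.1 (48 h) in TOL. SHAM gave 275 and 257 units (0 h), 222 and 248 (1 h), 232 and 245 (3 h), 178 and 110.5 (12 h), 163 and 145 (24 h) and 68 and 88.5 (48 h). The SHAM readings up to 3 h, 222 to 275 units, lay above all readings from 12 h on, whereas in TOL the 2 arrays of 0 h were themselves 199.5 and 97.4 units and overlapped later times. At 48 h the SHAM level was 78.3 units, against 266 units at 0 h, 3.43-fold lower (-1.78 ± 0.43, adjusted p = 0.0177). Over both arms it was 2.23-fold lower (-1.16 ± 0.31, adjusted p = 0.017), with overlapping arrays. The SHAM difference passed in 21 of the 24 fits that left out 1 array. The threshold was missed without either SHAM array of 0 h or else SHAM 48 h replicate 1 alone (adjusted p 0.0742 to 0.113, log2 differences -1.82 to -1.59). The difference over both arms passed in 21 of the 24 fits that left out 1 array. Leaving out TOL 0 h replicate 1, TOL 48 h replicate 2 or else SHAM 48 h replicate 1 alone ended the call (adjusted p 0.0607 to 0.079, log2 differences -1.06 to -0.79). X53455cds_s_at ranged from 79.3 to 242 units over the 24 arrays and had no call against 0 h; its difference at 48 h over both arms was -0.42 ± 0.23 (interval -0.90 to 0.07).

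The other 2 Map2 probe sets gave no usable level. S74265_s_at read 15.7 to 38.9 units and rc_AI228850_s_at -31.5 to 38.6 units, so that neither was well above background on any of the 24 arrays. The same held for Map1b: U52950_g_at read -7 to 31.6 units, U52950_at -40.1 to 19.7 units and X16623cds_s_at -52.6 to -19.6 units. No fold is given for these 5 probe sets, and the course of Map1b was not measured.

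Mapt, which encodes tau, had 3 probe sets above noise and no call against 0 h in either arm or over both. The probe set X79321_at read 896 and 1161 units (0 h), 1160.1 and 1009 (1 h), 1047.5 and 958 (3 h), 1044 and 1137 (12 h), 1064 and 962 (24 h) and 665 and 968 (48 h) in TOL. In SHAM it read 969.8 and 1049.6 units (0 h), 927 and 976 (1 h), 931.5 and 1054 (3 h), 1123 and 1086 (12 h), 974 and 1046 (24 h) and 1030.1 and 1000.3 (48 h). Apart from 1 TOL array of 48 h at 665 units, the other readings lay between 896 and 1161 units. Its mean difference from 0 h over both arms was 0.11 ± 0.12 at 12 h, -0.01 ± 0.12 at 24 h and -0.17 ± 0.12 at 48 h. The 95% interval at 24 h was -0.26 to 0.25. Whether Mapt differed from Nefl or Gap43 was not tested. The EST probe set rc_AA957930_s_at ranged from 728 to 1226 units, with a difference of 0.13 ± 0.14 at 24 h (interval -0.17 to 0.43) and 0.00 ± 0.14 at 48 h (-0.30 to 0.30). That probe set and the other EST probe set, rc_AI227608_s_at, correlated at r = 0.77 over the group means.

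**Figure D2:**
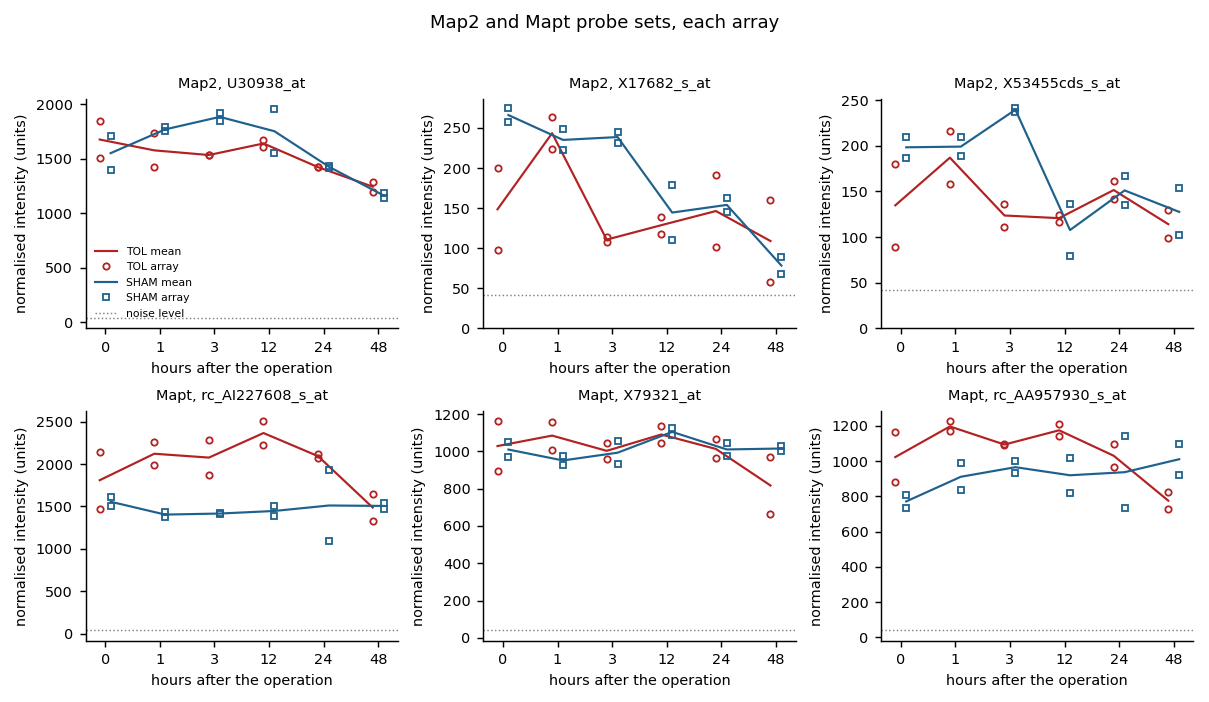
Normalised intensity (units) of the Map2 and Mapt probe sets above noise at each sampled time (hours after the operation, evenly spaced); circles are TOL arrays, squares SHAM arrays, lines the mean of 2 arrays, and the dotted line the noise level. Map2 U30938_at was lowest at 48 h in both arms, and Mapt rc_AI227608_s_at read higher in TOL than in SHAM from 0 to 24 h in the mean.

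**Figure D3:**
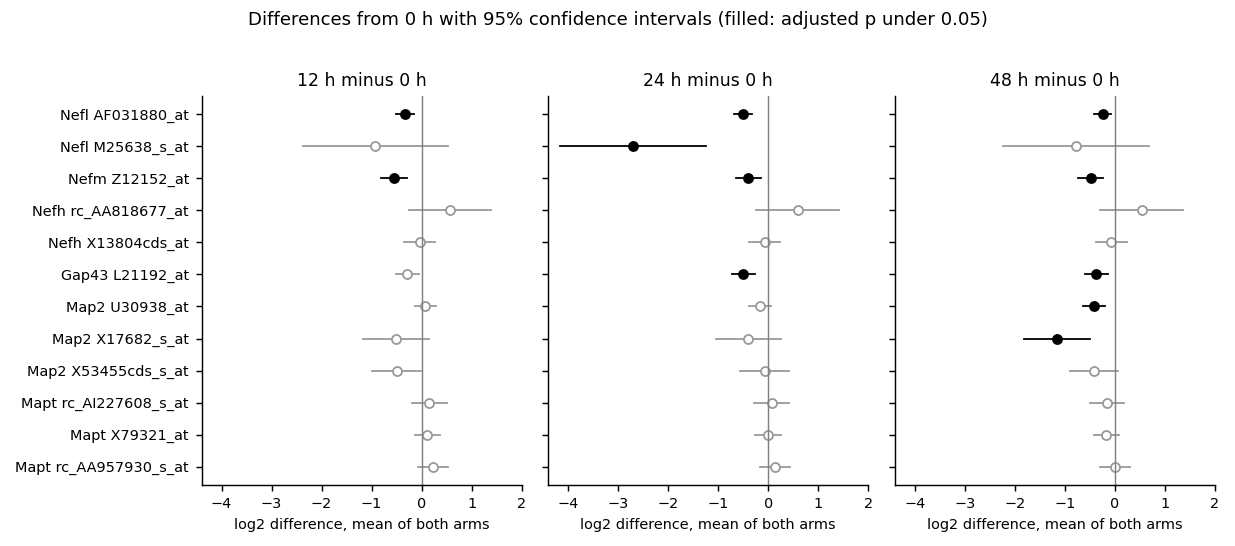
Log2 difference from 0 h, averaged over both arms, of the 12 probe sets above noise at 12, 24 and 48 h, with 95% confidence intervals from limma; filled points had an adjusted p under 0.05. All filled points lay below 0, 2 at 12 h, 4 at 24 h and 5 at 48 h, and the intervals of every Nefh and Mapt probe set included 0.

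Set side by side, the called members reached their lowest mean at different times: Nefm at 12 h in TOL and 48 h in SHAM, Nefl and Gap43 at 24 h in both arms, and Map2 U30938_at at 48 h in both. These are levels of 2 arrays each, and no test compared one member's time with another's. The hippocampus was sampled as bulk tissue, so fewer cells that hold a transcript and less of it per cell cannot be told apart. Summed over the 10 measured neuronal markers, the level was 15215 to 16231 units at 24 h and 14373 to 14573 units at 48 h in TOL, against 17908 to 19123 units at 0 h. In SHAM it was 13048 to 15334 units at 24 h and 15672 to 16277 units at 48 h, against 17058 to 17514 units at 0 h. At 48 h, 4 of these 10 markers were lower over both arms (10.2% of all tested) and 7 of 10 microglia and macrophage markers were higher (10.7%). The sum of the microglia and macrophage markers was 4292 to 5362 units at 48 h in TOL and 3058 to 4142 units in SHAM, against 2000 to 2073 units in TOL and 2110 to 2349 units in SHAM at 0 h, with Itgam, Csf1r and Cd74 not above noise in any group. At 24 h, when Nefl was lowest, limma called 0 of those 10 (8.23% of all tested lower, 8.93% higher). At an unadjusted p under 0.05 the count was 0 as well (30.2% of all tested). Their median log2 difference was 0.36, beside -0.04 over all tested probe sets. Camk2a and Uchl1, neuronal markers that also stand on lists described below, were called lower at 24 h over both arms. Of all tested probe sets 8.23% were lower there and 8.93% higher. Naming these markers is not a count of the 10 neuronal markers at that time. Of 8 astrocyte markers 1 was lower at 24 h (8.23% of all tested) and 1 at 48 h (10.2%) over both arms. Of 7 oligodendrocyte, 6 endothelial, 4 choroid plexus and 2 blood markers none was called at either time over both arms. Of all tested probe sets 8.23% and 10.2% were lower and 8.93% and 10.7% higher at these times. The sum of the choroid plexus and ependyma markers was nevertheless low at 24 h, at 1114 to 1795 units in TOL, against 4275 to 5634 units at 0 h, and 943 to 1134 units in SHAM, against 1230 to 2496 units at 0 h. It spread widely at other times, from 1518 to 6539 units in TOL and from 1025 to 5598 units in SHAM at 12 h. The part of these shifts in the members' falls was not tested.

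Whether the fall depended on the arm was tested directly. By limma's F test the TOL and SHAM time courses differed for 0 of the 15 probe sets after adjustment (0.353% of all tested). At an unadjusted p under 0.05 the count was 0 of 15 too (10.1% of all tested). Single interactions gave 0 calls at 1, 3, 12, 24 and 48 h (0.0423%, 0.0282%, 0.155%, 0.127% and 0.268% of all tested), with 1 probe set, Mapt rc_AA957930_s_at at 48 h, at an unadjusted p under 0.05 (10.5% of all tested there). Adjusted p-values for the compared time courses ran from 0.578 for that probe set to 0.979 for Nefh X13804cds_at among the 12 above noise. A p that misses the threshold does not show that the arms behaved alike, and the intervals were wide: for Nefl AF031880_at the interaction at 24 h, the change in TOL minus that in SHAM, was 0.06 ± 0.16 with an interval of -0.28 to 0.41. For Gap43 it was -0.13 ± 0.21 (-0.59 to 0.33), and for Nefm at 12 h -0.01 ± 0.24 (-0.52 to 0.50).

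By limma's tests at single times, 0 of the 15 differed between TOL and SHAM at 0 h (0.0987% of all tested), 1 h (0.0564%), 3 h (0.0141%), 12 h (0.409%), 24 h (0.183%) and 48 h (0.296%). At an unadjusted p under 0.05 the counts of the 15 were 1 at 0 h, 3 at 1 h, 6 at 3 h, 2 at 12 h, 2 at 24 h and 0 at 48 h, where 8.15% to 14.4% of all tested probe sets were. Averaged over the 6 times, 2 of 15 differed, against 9.31% of all tested: Mapt rc_AI227608_s_at was higher and Nefm lower in TOL. The tau probe set read 1474 and 2144 units (0 h), 1986 and 2256 (1 h), 2286 and 1865.5 (3 h), 2228 and 2502 (12 h), 2071 and 2115 (24 h) and 1324 and 1650.2 (48 h) in TOL. SHAM arrays read 1608 and 1502 units (0 h), 1372 and 1435 (1 h), 1419 and 1413 (3 h), 1385 and 1508 (12 h), 1094 and 1928 (24 h) and 1541 and 1470.3 (48 h). Its mean over the arm was 1992 units in TOL and 1473 units in SHAM, 1.34-fold higher (0.42 ± 0.09, adjusted p = 0.0186). The other Mapt probe sets did not share the call: X79321_at differed by -0.02 ± 0.07 (interval -0.17 to 0.12) and rc_AA957930_s_at by 0.19 ± 0.08 (adjusted p = 0.158). Nefm averaged 451 units in TOL and 537.5 units in SHAM (-0.24 ± 0.07, adjusted p = 0.041).

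The part of the hybridisation day in both arm differences cannot be told apart from that of the arm, and only 2 arrays cross the division. On day 1 the TOL array of 0 h read 1474 units for Mapt rc_AI227608_s_at, beside 1608 and 1502 units on the SHAM arrays of 0 h, while the TOL array of 0 h run on day 2 read 2144 units. At 48 h the day 2 arrays read 1324 and 1650 units in TOL and 1470 units in SHAM. The SHAM array of day 1 read 1541 units there. The 11 TOL arrays of day 2 had a median of 2115 units, and the 11 SHAM arrays of day 1 one of 1435 units. With the day as a block the difference was 0.23 with an adjusted p of 0.998, and as a random block 0.41 with an adjusted p of 0.0502. Those fits called 0.0141% and 2.72% of all tested probe sets for the mean TOL minus SHAM, against 9.31% without the day, so that nearly every call was lost with the day as a block. For Nefm the day 1 array of TOL at 0 h read 603 units, beside 642 and 644 units in SHAM, the day 2 array of TOL at 0 h 499 units, and the day 2 array of SHAM at 48 h 393 units, beside 373 and 472 units in TOL. With the day as a block its difference was -0.02 (adjusted p = 0.998), as a random block -0.23 (adjusted p = 0.0976), and with each array divided by its median -0.25 (adjusted p = 0.0568). Nefm's arm difference passed in 8 of the 24 fits that left out 1 array. Fits without either TOL array of 24 h, TOL 0 h replicate 2, TOL 1 h replicate 1, TOL 3 h replicate 2, TOL 12 h replicate 2, TOL 48 h replicate 1, either SHAM array of 0, 1 or 12 h, SHAM 3 h replicate 1, SHAM 24 h replicate 1 or else SHAM 48 h replicate 1 alone missed the threshold (adjusted p 0.051 to 0.0823, log2 differences -0.26 to -0.21). The tau difference passed in all 24 fits that left out 1 array (adjusted p at most 0.0368).

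**Figure D4:**
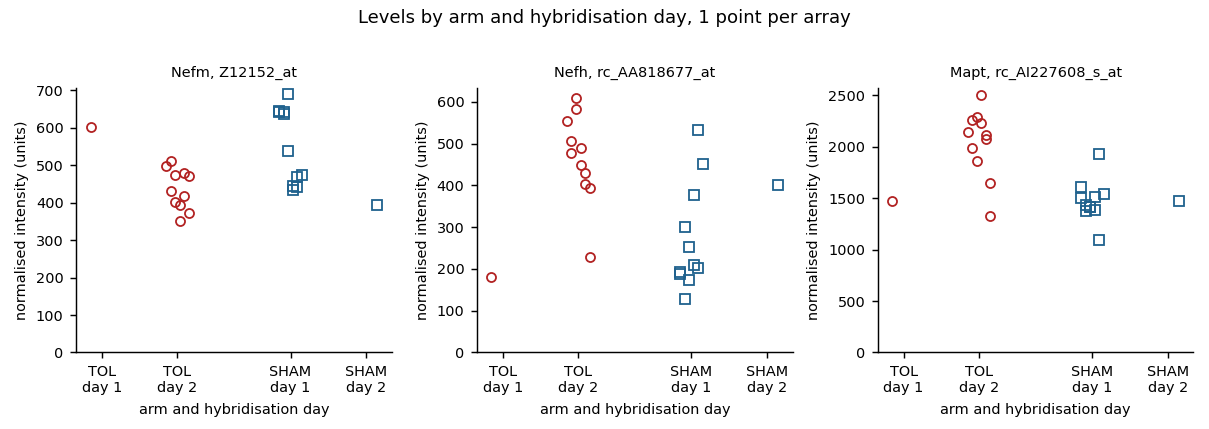
Normalised intensity (units) of Nefm, Nefh rc_AA818677_at and Mapt rc_AI227608_s_at on each of the 24 arrays, by arm and hybridisation day; within a column the points run from 0 h at the left to 48 h at the right. The only TOL array of day 1 lay within the range of the SHAM arrays of day 1 for all 3 probe sets.

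Nefh rc_AA818677_at had a wider gap between the arms that missed the threshold, 442 units in TOL and 284 units in SHAM (0.69 ± 0.22, adjusted p = 0.0653). The TOL arrays of 0 h read 180 units on day 1 and 554 units on day 2, although both belong to 1 group. Only the 1 SHAM array of day 2, at 401 units, and the 1 TOL array of day 1 cross the division, so arm and day cannot be told apart at the times between 0 and 48 h. The contrasts against 0 h run within an arm, but the 0 h group of TOL and the 48 h group of SHAM each straddle both days. Within each arm the arrays of 0 h shared no fluidics run with those of 12 h and later. Time and run therefore cannot be told apart in the falls from 12 h on. Fitted with the day as a block, the differences over both arms at 12 h stayed called for Nefl AF031880_at and Nefm, and those at 24 h for both Nefl probe sets and Gap43. All 5 at 48 h missed the threshold in that fit, where 4.85% of all tested probe sets were called lower (10.2% without the day), with log2 differences of -0.30 for Nefl AF031880_at, -0.34 for Nefm, -0.26 for Gap43, -0.33 for Map2 U30938_at and -0.99 for Map2 X17682_s_at. So did Nefm at 24 h, at -0.33 (adjusted p = 0.0793). In single arms that fit lost Gap43 at 24 h in TOL (-0.44, adjusted p = 0.145) and, at 48 h in SHAM, Nefm (-0.44, adjusted p = 0.146) and Map2 X17682_s_at (-1.61, adjusted p = 0.0669). With the deposited values left unscaled, the same 6 differences over both arms missed the threshold, at adjusted p-values from 0.0577 to 0.151, and so did all 6 called in single arms (0.0583 to 0.36) and both arm differences (0.0667 for Mapt and 0.403 for Nefm). Calls over all tested probe sets were fewer there too, at 5.47% lower at 48 h over both arms and 1.41% for the mean TOL minus SHAM. In each case the sign was the same.

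Other genes were ranked by how closely their 12 group means followed each member, among 2679 genes (1 probe set each) above noise in all groups. These correlations are descriptions over 12 points that share arrays, normalisation and the near division of the arms by hybridisation day. For Nefl AF031880_at the closest were Celf2, an RNA-binding splicing regulator (r = 0.98), Mgst3, a microsomal glutathione transferase (0.96), and Dtd1 (0.94), and the most opposed was Maco1 (-0.97). For Nefm they were Sorbs2 (0.93), Calm2, a calmodulin gene (0.91), and Eloc (0.91), with Cabp1, a neuronal calcium-binding protein, most opposed (-0.95). For Gap43 they were Gng7, a G protein gamma subunit (0.98), Dock9 (0.97) and Rasgrf1, a neuronal exchange factor for Ras (0.96), with Rchy1, a ubiquitin ligase, most opposed (-0.97). Map2 U30938_at was followed most closely by Synj2, Cldn7 and Grm7, a metabotropic glutamate receptor (each 0.93), and opposed by the collagen gene Col5a2 (-0.96). The closest to Mapt rc_AI227608_s_at were Speg (0.89), Arhgef7 (0.88) and Sst, which encodes somatostatin (0.88), with Prkacb at -0.89. The closest to Nefh rc_AA818677_at were Spock2 (0.96), Ptpn5 (0.93) and Gnas (0.92), with Hmgb1 at -0.92. Some of these genes differed between the arms: at 12 h Arhgef7 averaged 211 units in TOL and 104 in SHAM, and Prkacb 854 and 1220. The parts of arm and hybridisation day in these correlations cannot be told apart. Over the 24 single arrays, 7 of these 18 most alike genes were again among the 3 closest to their member, and 2 of the 6 most opposed were again the most opposed.

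Among 22 other measured genes of microtubules, those with the smallest p-values were 4 tubulins, which fell. By the F test 5 of the 22 changed in TOL (11.7% of all tested) and 6 in SHAM (15.7%). Over both arms 6 were lower (5.57%) and 1 higher (5.77%) at 12 h, 8 lower (8.23%) and 1 higher (8.93%) at 24 h, and 4 lower (10.2%) and 2 higher (10.7%) at 48 h. The list's median log2 difference was 0.03 at 12 h and -0.03 at 24 h, beside -0.02 and -0.04 over all tested probe sets. Tuba4a, an alpha-tubulin, read 861 and 944 units (0 h), 877 and 839 (1 h), 715 and 733 (3 h), 569.8 and 628 (12 h), 712 and 726 (24 h) and 686 and 749 (48 h) in TOL. The SHAM arrays gave 1056 and 1104.5 units (0 h), 920.5 and 841 (1 h), 603 and 527.5 (3 h), 522 and 522 (12 h), 565.5 and 662 (24 h) and 677 and 699 (48 h). It was already lower at 3 h over both arms (-0.63 ± 0.08, adjusted p = 0.000378) and lowest at 12 h (-0.82 ± 0.08, adjusted p = 1.41e-05).

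The beta-tubulins Tubb2b and Tubb5 and the alpha-tubulin Tuba1b had their low point at 12 or 24 h. Over both arms Tubb2b read 598 units at 12 h, against 1035 units at 0 h (-0.80 ± 0.08, adjusted p = 3e-05). Tuba1b read 3472 units, against 5976 units at 0 h (-0.79 ± 0.09, adjusted p = 0.000133). Tubb5 read 1556 units, against 2585 units at 0 h (-0.73 ± 0.10, adjusted p = 0.000519). At 48 h the Tubb2b arrays, 1132 and 1115 units in TOL and 1208 and 1161 units in SHAM, lay above all 4 arrays of 0 h, and no fall was called there for Tubb2b, Tuba1b or Tubb5. A second Tubb5 probe set, AB011679_at, which averaged between 37.2 and 90.7 units, near the noise level, was not called lower at 12 or 24 h and was called higher at 48 h (adjusted p = 0.0442). Tubulin genes are so alike in sequence that these probe sets may read several of them.

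**Figure D5:**
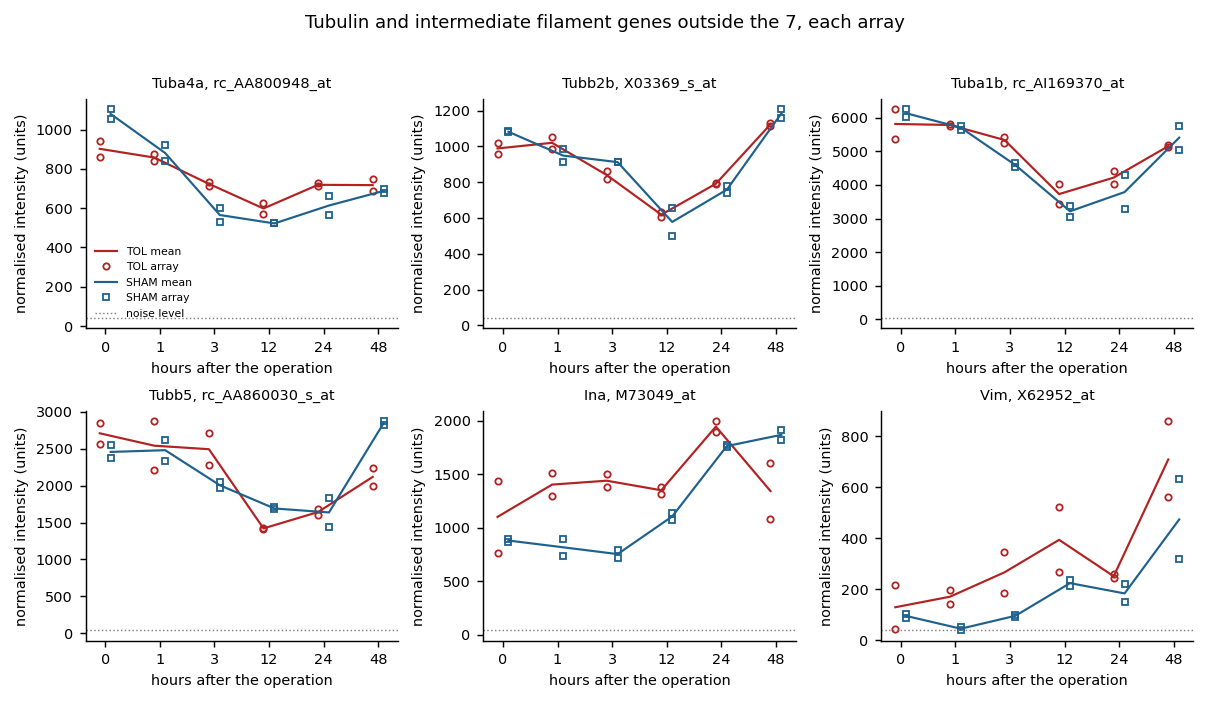
Normalised intensity (units) of 4 tubulin probe sets, Ina and Vim at each sampled time (hours after the operation, evenly spaced); circles are TOL arrays, squares SHAM arrays, lines the mean of 2 arrays, and the dotted line the noise level. The tubulins were lowest at 12 or 24 h, while Ina and Vim were higher at 24 h and at 48 h than at 0 h in the mean.

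Of 13 other intermediate filament and spectrin genes, 1 changed in TOL by limma's F test at an unadjusted p under 0.05 (27.4% of all tested). After adjustment 0 changed in TOL, against 11.7% of all tested, and 2 in SHAM, a share close to the 15.7% of all tested. Over both arms these 2, Ina and Vim, rose. Ina, which encodes alpha-internexin, a neuronal filament protein that assembles with the neurofilament subunits, read 764 and 1438 units (0 h), 1299 and 1508 (1 h), 1377.5 and 1502 (3 h), 1318 and 1382.5 (12 h), 1898 and 1995 (24 h) and 1603 and 1083 (48 h) in TOL. SHAM readings were 868 and 891.5 units (0 h), 736 and 898 (1 h), 718 and 787 (3 h), 1137 and 1074 (12 h), 1776.5 and 1751 (24 h) and 1821 and 1917 (48 h). Over both arms it was 0.95 ± 0.17 higher on the log2 scale at 24 h, when Nefl was lowest (adjusted p = 0.00153), and 0.71 ± 0.17 at 48 h (adjusted p = 0.00919). A second Ina probe set, rc_AA875659_s_at, had the same 24 h difference (884 against 462 units, 0.92 ± 0.14, adjusted p = 0.00055) but not that of 48 h (0.18 ± 0.14, adjusted p = 0.41). The first Ina probe set also showed the day gap of the TOL arrays at 0 h, 764 units on day 1 and 1438 units on day 2, and with the day as a block its 48 h call was lost (0.46, adjusted p = 0.111), as it was with the deposited values (0.57, adjusted p = 0.0999). Vim, vimentin, the filament protein of reactive glia and of vessels, was higher at 48 h (591 against 112 units, 2.54 ± 0.42, adjusted p = 0.000949). The list's median was -0.15 at 24 h and 0.12 at 48 h, beside -0.04 over all tested probe sets at each time.

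The 41 measured genes of actin, growth cones and regeneration held 4 that changed in TOL and 10 in SHAM, against 11.7% and 15.7% of all tested probe sets. Over both arms 10 were lower (8.23% of all tested) and 2 higher (8.93%) at 24 h, and 5 lower (10.2%) and 4 higher (10.7%) at 48 h, with medians of -0.11 and -0.07 beside -0.04. Atf3, a transcription factor induced in injured neurons, was higher early, at 1 h (328 against 195 units, 0.75 ± 0.13, adjusted p = 0.00825) and at 3 h (0.59 ± 0.13, adjusted p = 0.0267), and had no call when Gap43 was low. Its 3 h call passed in 18 of the 24 fits that left out 1 array (adjusted p up to 0.111), and with the deposited values the calls of 1 h (adjusted p = 0.109) and 3 h (adjusted p = 0.262) were lost. Nrp1, a semaphorin receptor of growth cones, was lower at 12 h (-0.33 ± 0.09, adjusted p = 0.0353) and at 48 h (-0.35 ± 0.09, adjusted p = 0.0177). These calls passed in 16 and 20 of the 24 fits that left out 1 array. Both were lost with the day as a block (adjusted p = 0.0693 and 0.0863) and with the deposited values (0.0868 and 0.223). The tropomyosin Tpm4 was higher at 48 h (392 against 173 units, 1.18 ± 0.13, adjusted p = 4.37e-05), and Tpm1 rc_AI144767_s_at lower (389 against 621 units, -0.67 ± 0.08, adjusted p = 0.00012). Other Tpm1 probe sets disagreed, since M60666_s_at was higher at 48 h (0.44 ± 0.12, adjusted p = 0.0164) and X02412_at lower (-0.38 ± 0.10, adjusted p = 0.0151). The uncalled M15474cds_s_at and M34134_s_at differed by -0.22 ± 0.10 and 0.25 ± 0.17 at 48 h. A second Tpm4 probe set, rc_AI105374_at, read 8.1 units at 48 h, under the noise level, against 59.7 units at 0 h and was not called (adjusted p = 0.0903).

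Kinases and phosphatases that act on tau, neurofilaments or Gap43 held 31 measured genes, of which 8 changed in TOL and 13 in SHAM, against 11.7% and 15.7% of all tested probe sets. Over both arms 9 were lower (8.23% of all tested) and 4 higher (8.93%) at 24 h, and 9 lower (10.2%) and 3 higher (10.7%) at 48 h, with medians of -0.28 and -0.16 beside -0.04. Prkcb, protein kinase C beta, of a family that phosphorylates Gap43, read 1280.1 and 1285.5 units in TOL at 48 h and 2478 and 2256 units at 0 h. In SHAM it read 1042 and 1076 units at 48 h and 2771.5 and 2872 units at 0 h. Its log2 difference over both arms was -1.15 ± 0.08 (adjusted p = 6.14e-07), and its probe sets E01789cds_s_at and K03486_s_at were lower too (-0.61 ± 0.10 and -0.97 ± 0.12, adjusted p = 0.000696 and 0.000116). Prkce, the epsilon isoform, was lower at 48 h (-0.98 ± 0.12, adjusted p = 0.000133), as it was on M18331_at and M18331_g_at, but not on M15523_s_at (-0.24 ± 0.21, adjusted p = 0.456). Camk2a, the alpha subunit of the calmodulin-dependent kinase of synapses and a marker on the neuronal list as well, read 49.9 and 52.2 units in TOL and 26.9 and 26.6 units in SHAM at 24 h, against 105 and 123 units in TOL and 84.6 and 139.9 units in SHAM at 0 h (adjusted p = 0.000142 over both arms); the SHAM arrays of 24 h were below the noise level, so no fold is given. Ppp2r2a, a regulatory subunit of protein phosphatase 2A, the main tau phosphatase, was higher at 24 h (1054 against 631.5 units, 0.74 ± 0.09, adjusted p = 5.67e-05).

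Of the genes of cytoskeletal breakdown that were called, most rose. Of 13 measured, 3 changed in TOL and 5 in SHAM, against 11.7% and 15.7% of all tested probe sets. Over both arms 4 were higher (8.93% of all tested) and 1 lower (8.23%) at 24 h, and 5 higher (10.7%) and 1 lower (10.2%) at 48 h, with medians of 0.29 and 0.34 beside -0.04. Ctsd, the lysosomal protease cathepsin D, was higher at 48 h (794.5 against 398 units, 0.99 ± 0.11, adjusted p = 5.75e-05), as was its probe set X54467_at (adjusted p = 0.000221). Capns1, the small regulatory subunit of the calpains that cut Map2 and neurofilaments, was higher at 48 h on U53859_g_at (1989 against 1350.4 units, 0.59 ± 0.13, adjusted p = 0.00565), but not on U53859_at (0.33 ± 0.13, adjusted p = 0.0811) or rc_AA892814_s_at (0.24 ± 0.16, adjusted p = 0.332). The call was lost with the day as a block (0.51, adjusted p = 0.0571) and with the deposited values (0.45, adjusted p = 0.208). Psmc2, a subunit of the proteasome cap, was higher at 24 h (0.63 ± 0.08, adjusted p = 0.000162), and its probe set U13895_s_at was not called (0.34 ± 0.13, adjusted p = 0.0948). Uchl1, a ubiquitin hydrolase abundant in neurons and likewise on the neuronal list, was the gene called lower: it read 2070.2 units at 24 h, against 2973 units at 0 h (-0.52 ± 0.08, adjusted p = 0.000326), and its other 2 probe sets were lower as well. For 0 genes of these 5 lists did the TOL and SHAM time courses differ by limma's F test, while at an unadjusted p under 0.05 the counts were 3 of 22, 1 of 13, 1 of 41, 4 of 31 and 1 of 13 in the order of description, where 10.1% of all tested probe sets were. Ctsd was also called higher over both arms at 12 h and at 24 h, and Vim at 12 h. These calls passed in 7, 20 and 18 of the 24 fits that left out 1 array. Each was lost with the deposited values (limma adjusted p = 0.63, 0.296 and 0.071). The microglia and macrophage marker sums given above were higher at 48 h, and their part in the rises of Ctsd and Vim was not tested.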

How the data were processed

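Total RNA of rat hippocampus was hybridised to 24 arrays. The authors deposited 1 intensity per probe set and array on a linear scale, with values below 0. How they were scaled is not given in the sources used here. Read depth has no meaning for arrays: their number limits the precision. Array medians ran from 51.6 to 85.6 units, so the intensities were quantile normalised, floored at the 25th percentile (3.49 units) and taken to log2. After 59 controls were left out, tests covered the probe sets that exceeded the floor on each array of some group. The noise level, 41.6 units, is the 99th percentile of the values of 1959 probe sets whose mean deposited intensity was at or below 0. Genes came from the platform annotation, which gave 7018 probe sets exactly 1 gene.

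A linear model with 1 mean for each of the 12 groups was estimated by limma 3.58.1 under R 4.3.3 (12 residual degrees of freedom), two-sided, with Benjamini-Hochberg adjustment over 7092 probe sets for each contrast. Simulated data with independent noise and shifts in SHAM at 48 h were also passed through the model. They held no effect of day or fluidics run, so they say nothing about either. Figures were drawn with matplotlib 3.10.9. Every probe set of the 7 genes is named. From each of 5 lists, counted with 1 probe set a gene (that of the highest mean), up to 4 genes that passed an F test were named by the smallest p-value, and for each member the 3 genes most alike and the 1 most opposed. Other probe sets of named genes were added after their values were seen. The members and lists were chosen with earlier results of these data known. Hybridisation days and fluidics runs (gaps of up to 5 minutes) were read from the deposited run records. Alternatives covered the scaling, the floor, the filter, the replicate number, the hybridisation day and each array left out in turn. The replicate numbers did not pair the samples.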

Additional observations from a re-analysis of the deposited data

Results flagged for a closer look

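In a pair of cases both later arrays of 1 arm lay above both of its 0 h arrays. Both arrays of the other arm at that time lay below both of its own 0 h arrays. Mapt rc_AA957930_s_at read 728 and 824 units at 48 h in TOL, against 884 and 1163 units at 0 h, and 1098 and 924.5 units in SHAM, against 809 and 735 units at 0 h. The interaction, the log2 change in TOL minus that in SHAM, was -0.77 and missed the threshold (limma adjusted p = 0.332). Map2 X17682_s_at read 223 and 263.5 units at 1 h in TOL, against 199.5 and 97.4 units at 0 h, and 222 and 248 units in SHAM, against 275 and 257 units at 0 h. Its interaction of 0.98 missed the threshold as well (limma adjusted p = 0.91).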

How the results depend on the processing

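With the deposited values used unscaled, the calls were 0 over the TOL time course (2 as reported), 0 over the SHAM time course (4), 0 at single times in TOL (2) and in SHAM (4), 5 over both arms (11) and 0 for the mean TOL minus SHAM (2). Over all probe sets these shares were 4.91% (11.7%), 5.94% (15.7%), 2.32% (4.36%), 2.28% (6.03%), 6.08% (11.1%) and 1.41% (9.31%). With each array divided by its median, single times gave 4 calls in TOL (3.97% of all tested) and 8 in SHAM (6.74%), and the mean TOL minus SHAM gave 1 (8.29%). With the hybridisation day as a block, the counts were 1 for the SHAM time course (12.1%), 1 at single times in TOL (2.62%) and 2 in SHAM (5.04%), 5 over both arms (7.68%) and 0 for the mean TOL minus SHAM (0.0141%), which was 0 with a random block too (2.72%, within-day correlation 0.028). On 1 day alone the time course gave 0 calls in TOL (4.02%) and 2 in SHAM (6.77%), and single times gave 0 in TOL (1.27%). The contrasts over both arms, the mean TOL minus SHAM and the interactions could not be fitted within 1 day. Without the 4 TOL arrays of 24 and 48 h, an alternative chosen after seeing the data, the TOL time course over 1, 3 and 12 h gave 0 calls (3.31% of all tested); it covers fewer times. Otherwise the cause of these shifts was not tested.

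Leaving out 1 array at a time gave 0 to 3 calls over the TOL time course, 2 to 6 over that of SHAM, 0 to 4 at single times in TOL and 0 to 4 in SHAM, 6 to 13 over both arms, 1 to 5 for the mean TOL minus SHAM and 0 to 1 for TOL minus SHAM at each time. The compared time courses gave 0 in every fit run. Of 158 alternative values of the 19 called differences, 125 kept their call, 33 lost it and 0 reversed. The replicate numbers did not pair the samples: deviations of same-numbered arrays correlated at r = -0.17 to 0.18 over 66 pairs of groups, 7 of them over 0.1. With the replicate block the TOL single times gave 1 call, Gap43 at 24 h being lost (-0.56, adjusted p = 0.0522). The probe sets above noise numbered 12 under each scaling, and over single arrays 9 of the 24 genes named for likeness (7 of 18 most alike and 2 of 6 most opposed) were named again. Probe sets near the noise level have no order there.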
